A study of Homo sapiens with 12 samples.

Results

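Messenger RNA of 10 enzymes that make serine, glycine, asparagine, proline and cysteine, or that carry one-carbon units on folate in mitochondria, was followed across the 4 treatment groups of PC9-OR cells. The genes are PHGDH, PSAT1, PSPH, SHMT2, MTHFD2, ALDH1L2, ASNS, ALDH18A1, PYCR1 and CTH. They were taken from the count table by gene identifier, 10 of 39266 genes, and all 10 were among the 20820 genes with enough counts to test. PC9-OR is an osimertinib-resistant derivative of PC9, an established non-small cell lung cancer line, and every group, Control included, was made of these cells. The groups were Control, osimertinib (OSI, an inhibitor of the EGFR kinase), dauricine (DAC, a plant alkaloid) and the pair of compounds given at once (DAC+OSI). Each group has 3 libraries. Doses, treatment times and what the Control cells received are not given in the labels. The design asks how each compound given alone differs from the pair. All results come from 1 cell line, and whether the libraries of a group are separate cultures is not stated.

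As background, cells can build serine from a glycolytic intermediate in a short chain: PHGDH oxidises phosphoglycerate, PSAT1 transfers an amino group to the product from glutamate, and PSPH removes the phosphate. SHMT2 then splits serine into glycine and a one-carbon unit on tetrahydrofolate inside mitochondria, MTHFD2 oxidises that unit, and ALDH1L2 can burn it to carbon dioxide while making NADPH. ASNS makes asparagine from aspartate with glutamine as the nitrogen donor. ALDH18A1 turns glutamate into the precursor that PYCR1 reduces to proline, and CTH (cystathionine gamma-lyase) releases cysteine at the end of transsulfuration. Many of these genes are textbook targets of ATF4, the transcription factor that is translated when amino acids are short or the eIF2 alpha kinases are active.

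Against Control, 9 of the 10 members had a log2 change below 0 in each treated group, and ALDH18A1 had one above 0. The promoter sequences below are shown as description, and shared regulation was not tested. They come from the RefSeq table of GRCh38.p14, which holds 6 of the 10 members. PSPH, SHMT2, ALDH1L2 and PYCR1 are named only. The 250 bases before each annotated start were searched on both strands for 5 motifs, TGATGNAA (the core of the element that ATF4 binds with C/EBP partners), CCAAT (the box that NF-Y binds), CACGTG (an E-box, the kind of site MYC binds), GGGCGG (a GC box) and TGACGTCA (the cyclic AMP response element). No match overlapped one of another motif. Each line gives the last 150 bases before the start, 5′ to 3′ on the gene's own strand, with the named motif in capitals. TGATGNAA is in capitals for ASNS, CCAAT for PSAT1, MTHFD2 and CTH, and CACGTG for ALDH18A1.
ASNS: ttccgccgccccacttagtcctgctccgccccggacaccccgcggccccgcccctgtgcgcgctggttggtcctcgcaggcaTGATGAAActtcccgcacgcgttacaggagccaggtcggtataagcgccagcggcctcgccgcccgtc
PSAT1: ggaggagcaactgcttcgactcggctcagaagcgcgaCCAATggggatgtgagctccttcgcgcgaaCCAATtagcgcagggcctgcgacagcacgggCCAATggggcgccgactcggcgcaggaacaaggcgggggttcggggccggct
MTHFD2: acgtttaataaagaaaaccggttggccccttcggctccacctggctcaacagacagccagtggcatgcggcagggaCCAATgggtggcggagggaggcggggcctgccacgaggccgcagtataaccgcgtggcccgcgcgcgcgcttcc
CTH: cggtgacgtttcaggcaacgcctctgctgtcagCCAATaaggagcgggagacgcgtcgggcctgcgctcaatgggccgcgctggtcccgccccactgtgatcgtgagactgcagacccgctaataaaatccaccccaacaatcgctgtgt
ALDH18A1: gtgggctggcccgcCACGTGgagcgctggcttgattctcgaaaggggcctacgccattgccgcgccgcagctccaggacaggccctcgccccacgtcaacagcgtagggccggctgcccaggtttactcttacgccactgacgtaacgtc
The ASNS stretch is chr7:97872409-97872558 on the minus strand, PSAT1 is chr9:78296975-78297124 on the plus strand, MTHFD2 is chr2:74198465-74198614 on the plus strand, CTH is chr1:70411118-70411267 on the plus strand and ALDH18A1 is chr10:95656712-95656861 on the minus strand. ASNS was the 1 member of 6 with a TGATGNAA match, TGATGAAA, which began 68 bases before the start, and 3.14% of 35116 promoters held such a match. A second ASNS start in the table had none. CCAAT was found in 4 of the 6 members against 32.0% of all promoters: PSAT1 held it at 113, 83 and 52 bases before the start, MTHFD2 at 184 and 74, CTH at 117 and PHGDH at 71. CACGTG was found only in ALDH18A1, 136 bases before the start, against 6.34% of all promoters. GGGCGG was found in 3 of the 6 (ASNS, PSAT1 and CTH) against 42.6%, and TGACGTCA in none of the 6 against 1.65%. These are matches of letters, and no factor's binding was measured.

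Libraries held 24.9 to 66.9 M counts (M, mega). Levels are in CPM, a gene's counts per M counts of its library, with library sizes scaled by edgeR's TMM factors. The second library of Control and the second library of DAC+OSI stood apart from the others. In both, a gene's deviation from its group mean rose with its GC content (Spearman rho over genes 0.56 and 0.57), while rho ran from -0.52 to -0.37 in the other libraries of those groups. In OSI and DAC libraries it ran from -0.09 to 0.06. Results were therefore also fitted from 10 libraries, without these 2. The members' values from this fit are given beside the others, and all 84 calls examined for related genes were kept in it. The 6 epithelial markers summed to 9718 to 20210 CPM, with DAC+OSI 2 highest, whereas the 3 lung-lineage markers (NKX2-1, NAPSA and SFTPB) summed to only 0.947 to 1.70 CPM. The 6 fibroblast markers summed to 94.8 CPM in DAC+OSI 2, 27.3 and 41.4 CPM in the other DAC+OSI libraries and 7.33 to 22.3 CPM elsewhere, with DCN at 0 in 11 of the 12 libraries. COL1A1 alone gave 78.27 CPM of this in DAC+OSI 2, and 25.27 and 38.1 CPM in DAC+OSI 1 and 3. COL1A2 gave 13.57, 0.9052 and 1.658 CPM in the same libraries. Mean COL3A1 was 0.4293 CPM with DAC+OSI against 0.4727 CPM in Control, LUM 0.0217 against 0.1409, and PDGFRB 1.419 against 1.11. The 4 immune markers summed to 7.15 to 10.63 CPM in Control, 5.64 to 6.13 CPM with OSI, 12.7 to 15.03 CPM with DAC, 12.1 and 12.7 CPM in DAC+OSI 3 and 1, and 36.0 CPM in DAC+OSI 2. The 3 endothelial markers summed to 4.95 to 5.33 CPM in Control, 10.63 to 13.2 CPM with OSI, 8.65 to 9.92 CPM with DAC, 12.4 and 13.8 CPM in DAC+OSI 1 and 3, and 28.4 CPM in DAC+OSI 2. Some of these markers thus differed between treatments and not only in that library. With OSI, PTPRC (2.19-fold, adjusted p = 0.0454) and CD3E (3.17-fold, adjusted p = 0.014) fell and CDH5 rose (2.90-fold, adjusted p = 9.95e-05). The rest of the immune and endothelial lists were not called with OSI and went both ways. Mean CD68 also fell, from 0.275 to 0.1883 CPM, but CD14 rose from 1.862 to 2.954 CPM. Mean VWF also rose, from 0.7675 to 1.223 CPM, but PECAM1 fell from 0.8336 to 0.4826 CPM. Called with DAC were 1 endothelial and 1 immune marker higher and 1 fibroblast marker lower, beside 1094 higher and 826 lower of 20820 genes. Called with DAC+OSI were 2 endothelial, 1 fibroblast and 1 immune marker higher and 1 immune marker lower, beside 3178 higher and 2640 lower. The part of these markers in the members' values was not tested.

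Most of the 10 members had a log2 change below 0 in every treated group against Control. In the fit of 12 libraries no member was called higher. A member was called when its adjusted p in edgeR's quasi-likelihood test was under 0.05. The members were chosen with earlier results of these data known, so the shares of all genes beside their counts are description and no test. With OSI, 7 of the 10 members fell, beside 8.13% of all genes tested that fell in that comparison. With DAC, 5 of 10 fell, beside 3.97% of all genes. That count was 1 without DAC 3 (1.22% of all genes), 2 without DAC 1 (1.62%) and 3 without Control 2 (2.09%) or Control 3 (2.6%). With DAC+OSI, 8 of 10 fell, beside 12.7% of all genes. That count was 5 without Control 2, DAC+OSI 1 or DAC+OSI 3, where 2582, 2566 and 2329 of all genes fell against 2640 in the fit of 12 libraries, and 4 with only these 2 groups fitted (6.64% of all genes). The median log2 change of the 10 members was -0.86 with OSI, -0.77 with DAC and -0.72 with DAC+OSI, and the median of all genes tested was -0.01, 0.01 and 0.03. These 3 comparisons share the Control libraries. SHMT2, MTHFD2, ASNS and CTH were called in all 3. ALDH18A1 was the 1 member whose mean lay above Control in every treated group. From 10 libraries, 9 members were called in each of the 3 comparisons, 8 lower and ALDH18A1 higher, beside 42.4%, 26.1% and 41.0% of all genes called either way. In bulk RNA, fewer cells that express a gene and less RNA of it per cell cannot be told apart.

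**Figure D1:**
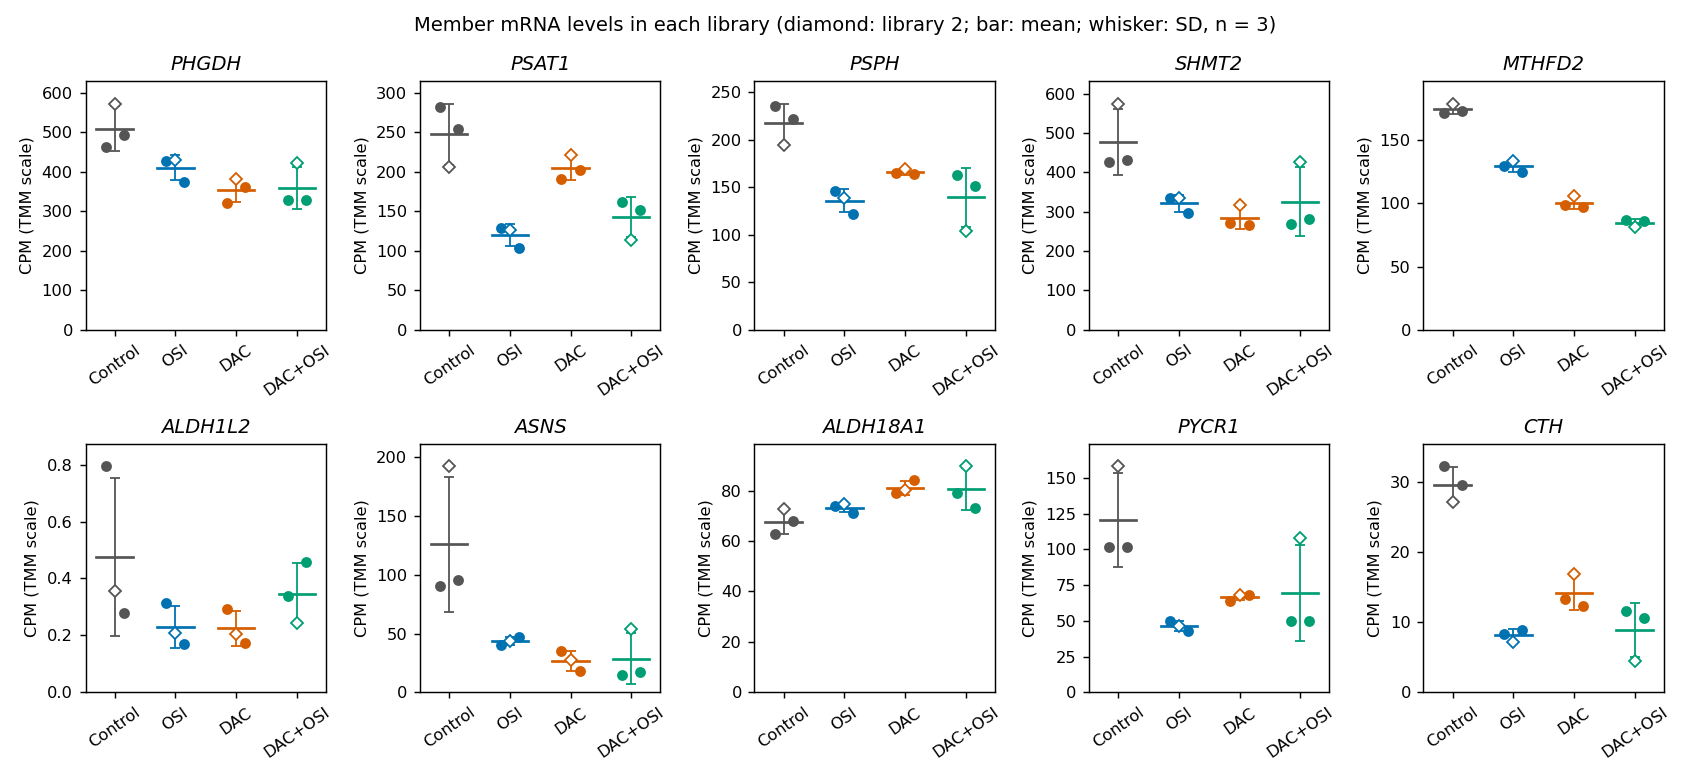
Level of each of the 10 members in CPM on the TMM scale (vertical axis, from 0) in the 3 libraries of each group, with the group mean as a bar and the SD as a whisker; the open diamond is library 2. MTHFD2 steps down from 174.7 CPM in Control to 84.73 CPM in DAC+OSI with little spread, whereas in ASNS, PYCR1 and SHMT2 the diamond lies above the other libraries of Control and of DAC+OSI.

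Levels were compared between genes per kb of annotated length, in CPM per kb. With the union of all exons as length, PSAT1 (113 CPM per kb) and SHMT2 (98.7) led in Control, followed by PSPH (78.8), PHGDH (55.3), PYCR1 (41.7), MTHFD2 (35.9), ASNS (28.3), ALDH18A1 (18.0), CTH (12.2) and ALDH1L2 (0.0559). The ranges over the 3 Control libraries overlapped between these neighbours: PSAT1 and SHMT2, PHGDH and PYCR1, PYCR1 and MTHFD2, and MTHFD2 and ASNS. With the length of the principal transcript, which was tried after the values were seen, PHGDH (197) and SHMT2 (188) led, since the exon union of PHGDH is 9217 bases and its principal transcript 2585. CTH and ALDH1L2 were the lowest 2 members in every group by either length.

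PHGDH (ENSG00000092621, chromosome 1), the entry to serine synthesis, had the smallest fall of the members called with DAC and with DAC+OSI. Its level was 463.6, 572.6 and 492.3 CPM in the Control libraries, 428.4, 429.1 and 373.7 CPM with OSI, 321.8, 381.1 and 360.7 CPM with DAC, and 329.6, 421.5 and 327.2 CPM with DAC+OSI. All 9 treated libraries lay below all 3 Control libraries. The log2 change was -0.52 ± 0.14 (SE) with DAC (adjusted p = 0.033) and -0.50 ± 0.14 with DAC+OSI (adjusted p = 0.0155), and it was called in both. With OSI it was -0.31 ± 0.14 and not called (adjusted p = 0.14), but called from 10 libraries (-0.21, adjusted p = 0.0333). The DAC call was lost without Control 2 or 3 or any 1 DAC library (adjusted p up to 0.145), and the DAC+OSI call without Control 2, DAC+OSI 1 or DAC+OSI 3 (up to 0.0628) or with Control and DAC+OSI fitted alone (0.0937). From 10 libraries both were called (-0.44 and -0.55).

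PSAT1 (ENSG00000135069, chromosome 9), the aminotransferase, separated the compounds. It measured 282.4, 205.8 and 254.0 CPM in Control, 129.3, 126.5 and 103.2 CPM with OSI, 190.2, 221.0 and 202.0 CPM with DAC, and 161.5, 113.6 and 151.9 CPM with DAC+OSI. The OSI and DAC+OSI libraries lay below every Control and every DAC library, while DAC overlapped Control. PSAT1 fell 2.07-fold with OSI (log2 change -1.05 ± 0.16, adjusted p = 0.000678) and 1.74-fold with DAC+OSI (-0.80 ± 0.16, adjusted p = 0.00277). With DAC alone the change was -0.28 ± 0.16 (adjusted p = 0.338), or -0.40 and called from 10 libraries (adjusted p = 0.00138), where OSI gave -1.16 and DAC+OSI -0.78. Both calls of the 12-library fit held without any 1 library.

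PSPH (ENSG00000146733, chromosome 7), which releases free serine, had 235.4, 195.0 and 222.5 CPM in Control, 145.9, 138.8 and 122.4 CPM with OSI, 164.6, 169.2 and 164.1 CPM with DAC, and 163.4, 104.4 and 151.0 CPM with DAC+OSI. No treated library reached the lowest Control library. It fell 1.60-fold with OSI (-0.68 ± 0.16, adjusted p = 0.00868) and 1.56-fold with DAC+OSI (-0.64 ± 0.16, adjusted p = 0.00843). With DAC it changed by -0.39 ± 0.16 and was not called (adjusted p = 0.149), although it was from 10 libraries (-0.47, adjusted p = 3.15e-05). The changes with OSI and DAC+OSI were -0.75 and -0.55 from 10 libraries. Fitted with the Control and DAC+OSI libraries alone, the DAC+OSI call was lost (adjusted p = 0.0672).

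SHMT2 (ENSG00000182199, chromosome 12), the mitochondrial serine hydroxymethyltransferase, fell in all 3 comparisons with Control, each by a thin margin. It measured 425.6, 574.9 and 431.7 CPM in Control, 333.9, 334.6 and 296.8 CPM with OSI, 270.3, 315.8 and 265.6 CPM with DAC, and 267.6, 426.4 and 282.7 CPM with DAC+OSI. OSI and DAC lay wholly below Control, whereas DAC+OSI 2 lay just above Control 1. The log2 changes were -0.57 ± 0.18 with OSI (adjusted p = 0.0456), -0.75 ± 0.18 with DAC (adjusted p = 0.0231) and -0.55 ± 0.18 with DAC+OSI (adjusted p = 0.0383). From 10 libraries they were -0.41, -0.60 and -0.64, all called. The OSI call was lost without any 1 of its 6 libraries (adjusted p up to 0.168) and with RLE scaling (0.0623), the DAC call without Control 2, DAC 1 or DAC 3 (up to 0.118), and the DAC+OSI call without Control 2, Control 3, DAC+OSI 1 or DAC+OSI 3 (up to 0.134), with RLE scaling (0.0516) or with Control and DAC+OSI fitted alone (0.153).

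MTHFD2 (ENSG00000065911, chromosome 2), the mitochondrial methylene-tetrahydrofolate dehydrogenase, gave the most regular pattern of the 10. Its levels were 171.9, 179.0 and 173.1 CPM in Control, 129.5, 133.7 and 125.0 CPM with OSI, 98.59, 106.1 and 97.16 CPM with DAC, and 87.06, 80.99 and 86.14 CPM with DAC+OSI. None of the 4 groups overlapped another, in the order Control, OSI, DAC and DAC+OSI. MTHFD2 fell 1.35-fold with OSI (-0.43 ± 0.10, adjusted p = 0.00836), 1.74-fold with DAC (-0.80 ± 0.10, adjusted p = 0.000368) and 2.06-fold with DAC+OSI (-1.04 ± 0.10, adjusted p = 8.15e-06). These calls held without any 1 library. Only the OSI call was lost under other settings, with no filter on low counts (adjusted p = 0.0779) and with a GC correction (0.0569). From 10 libraries the changes were -0.41, -0.78 and -0.998.

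ALDH1L2 (ENSG00000136010, chromosome 12), the mitochondrial formyl-tetrahydrofolate dehydrogenase, was close to the detection limit. It had 49, 15 and 12 counts in Control, 13, 10 and 8 with OSI, 16, 12 and 9 with DAC, and 19, 5 and 31 with DAC+OSI, in all 199 counts. These are 0.171 to 0.794 CPM, where 3 counts, the level that a count of 0 still allows, stand for 0.0449 to 0.12 CPM. All 4 groups overlapped, and no comparison called it in the fit of 12 libraries. Its log2 changes of -1.07 ± 0.48 with OSI and -1.10 ± 0.47 with DAC (adjusted p = 0.146 and 0.179) rest on Control 1, and the -0.43 ± 0.46 with DAC+OSI turned to 0.15 without Control 1. From 10 libraries they were -1.25, -1.28 and -0.46, and not called. ALDH1L2 shares 145 exon bases with C12orf45 on the other strand, a gene with 8188 counts, and the labels do not say whether counting used the strand.

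ASNS (ENSG00000070669, chromosome 7), asparagine synthetase, had the largest fall of the members with DAC and with DAC+OSI. It measured 90.06, 192.2 and 95.66 CPM in Control, 39.84, 43.69 and 47.38 CPM with OSI, 35.17, 27.57 and 17.96 CPM with DAC, and 14.75, 53.99 and 17.34 CPM with DAC+OSI. Every treated library was below every Control library, and library 2 was the highest of its group in Control and in DAC+OSI. ASNS fell 2.89-fold with OSI (-1.53 ± 0.45, adjusted p = 0.0311), 4.68-fold with DAC (-2.23 ± 0.46, adjusted p = 0.0095) and 4.43-fold with DAC+OSI (-2.15 ± 0.46, adjusted p = 0.00379). From 10 libraries the falls were 2.11-fold, 3.47-fold and 5.79-fold (adjusted p = 0.0109, 0.0019 and 0.00038). Without DAC+OSI 2 alone the DAC+OSI change was -3.01 (adjusted p = 0.000102). The OSI call was lost without Control 2 (-1.08, adjusted p = 0.125), without any 1 OSI library (up to 0.11) and with a GC correction (0.0729), and the DAC call without DAC 3 (0.0651). The exons of ASNS overlap those of AC079781.5 on the same strand over 44.6% of their bases, and that gene has 219 counts against 31340 for ASNS. Whether ASNS lost reads over the shared bases was not tested.

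In the proline branch the 2 members parted. ALDH18A1 (ENSG00000059573, chromosome 10), which makes the proline precursor, stood at 62.61, 72.52 and 68.03 CPM in Control, 74.07, 74.56 and 71.16 CPM with OSI, 78.9, 80.16 and 84.24 CPM with DAC, and 79.0, 89.6 and 73.11 CPM with DAC+OSI. DAC and DAC+OSI lay above Control without overlap, and OSI overlapped it. The log2 changes, 0.11 ± 0.11, 0.26 ± 0.11 and 0.25 ± 0.11, were not called (adjusted p = 0.548, 0.186 and 0.121), and from 10 libraries 0.17, 0.31 and 0.22 were (0.0494, 0.00201 and 0.0257). PYCR1 (ENSG00000183010, chromosome 17), the mitochondrial reductase that finishes proline, measured 101.4, 158.1 and 101.6 CPM in Control, 49.63, 46.51 and 42.76 CPM with OSI, 63.95, 67.75 and 68.24 CPM with DAC, and 49.82, 108.3 and 50.25 CPM with DAC+OSI. OSI and DAC were wholly below Control, and DAC+OSI 2 lay among the Control libraries. PYCR1 shares 14.1% of its exon bases with MYADML2 on the same strand, which has 124 counts against 42996 for PYCR1.

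PYCR1 fell 2.60-fold with OSI (-1.38 ± 0.27, adjusted p = 0.00346), a call that held without any 1 library and was -1.13 from 10 libraries. With DAC+OSI it fell 1.74-fold (-0.80 ± 0.27, adjusted p = 0.0433), but this call was lost without any 1 library other than DAC+OSI 2 (adjusted p up to 0.159), with RLE scaling (0.0548) and with Control and DAC+OSI fitted alone (0.173). Without DAC+OSI 2 the change was -1.30, and from 10 libraries -1.02. With DAC it was -0.85 ± 0.27 and just missed the threshold (adjusted p = 0.069), which it passed with DESeq2 (0.0291), with the replicate number as a block (0.0291), with no filter on low counts, with a GC correction, with Control and DAC fitted alone (0.00887) and from 10 libraries (-0.61, adjusted p = 5.34e-07).

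CTH (ENSG00000116761, chromosome 1), which makes cysteine, had the largest fall of the members called with OSI. It measured 32.16, 27.02 and 29.48 CPM in Control, 8.268, 7.168 and 8.911 CPM with OSI, 13.34, 16.86 and 12.28 CPM with DAC, and 11.55, 4.475 and 10.54 CPM with DAC+OSI. All treated libraries were far below Control, DAC lay above OSI and DAC+OSI without overlap, and DAC+OSI 2 was the lowest of the 12. CTH fell 3.64-fold with OSI (-1.86 ± 0.27, adjusted p = 0.000425), 2.09-fold with DAC (-1.06 ± 0.26, adjusted p = 0.0258) and 3.29-fold with DAC+OSI (-1.72 ± 0.27, adjusted p = 0.000448). From 10 libraries these were 3.78-fold, 2.19-fold and 2.80-fold. The DAC call was lost without Control 1, Control 3, DAC 1 or DAC 3 (adjusted p up to 0.114), and the others held without any 1 library.

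**Figure D2:**
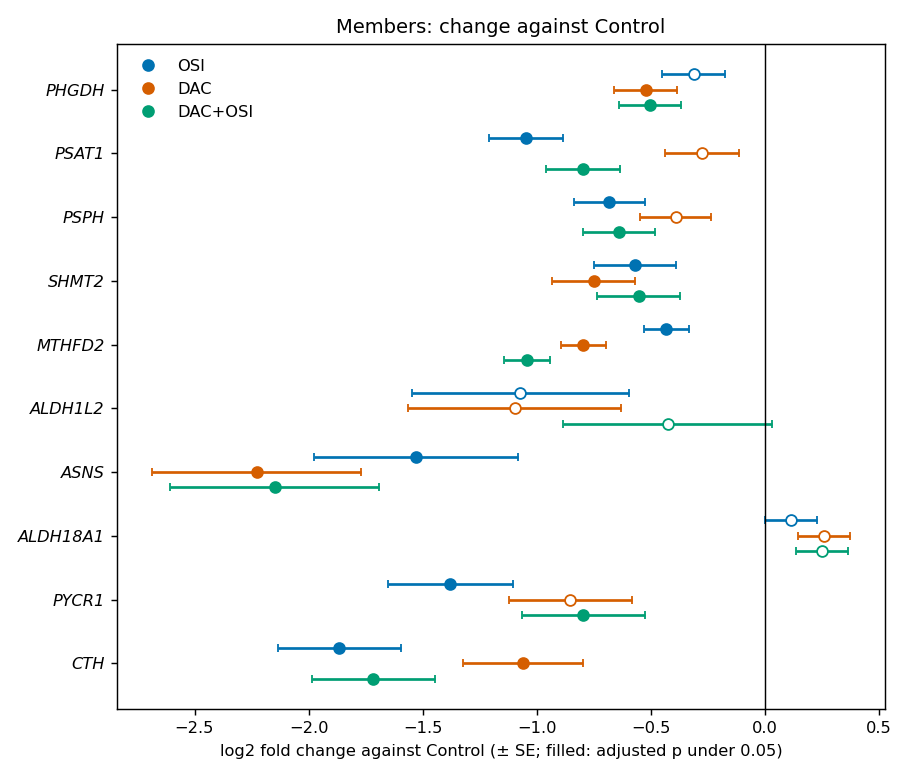
log2 fold change of each member against Control (horizontal axis) with OSI, DAC and DAC+OSI, ± SE from the fit of 12 libraries; filled points have an adjusted p under 0.05. CTH and PSAT1 are lowest with OSI, ASNS is lowest with DAC (-2.23), MTHFD2 falls further from OSI to DAC to DAC+OSI, and ALDH18A1 lies to the right of 0 throughout.

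The compounds given singly were also set against each other, a comparison added after the values were seen, in which 20.5% of all genes were called. PSAT1 was 1.71-fold higher with DAC than with OSI (0.77 ± 0.16, adjusted p = 0.00496) and CTH 1.75-fold higher (0.80 ± 0.27, adjusted p = 0.0494), while MTHFD2 was 1.29-fold lower (-0.36 ± 0.10, adjusted p = 0.0209). The PSAT1 call held without any 1 library. The CTH call was lost without any 1 of the 6 libraries (adjusted p up to 0.175), and the MTHFD2 call without OSI 1, OSI 2, DAC 1 or DAC 3 (up to 0.0845) and with no filter on low counts (0.133). From 10 libraries the 3 values were 0.76, 0.79 and -0.38, all called. ASNS (-0.70 ± 0.44, adjusted p = 0.288), PYCR1 (0.53 ± 0.27, adjusted p = 0.187), PSPH (0.29 ± 0.16, adjusted p = 0.208) and ALDH18A1 (0.15 ± 0.11, adjusted p = 0.387) did not overlap between the groups but were not called, and 56.0% of all genes tested did not overlap there. With these 2 groups fitted alone, 7 members were called, beside 50.6% of all genes, and from 10 libraries 8 were, beside 48.2%.

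Adding DAC to OSI changed 1 member, MTHFD2, which was 1.53-fold lower with DAC+OSI than with OSI alone (-0.61 ± 0.10, adjusted p = 0.000982), beside 16.7% of all genes called in that comparison. The call held without any 1 library and from 10 libraries (-0.59). Other calls depended on DAC+OSI 2: without it 5 members were called, beside 27.3% of all genes, with PHGDH (-0.35, adjusted p = 0.0374) and ASNS (-1.47, adjusted p = 0.0106) lower and PSAT1 (0.36, adjusted p = 0.0482) and CTH (0.42, adjusted p = 0.0475) higher than with OSI alone. From 10 libraries 7 were called, 3 higher and 4 lower, beside 40.7% of all genes. PYCR1, 0.58 ± 0.27 in the fit of 12 libraries (adjusted p = 0.171), was 0.10 from 10, although it was called with no filter on low counts (0.0194) and with a GC correction (0.0244).

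Adding OSI to DAC changed no member by edgeR's quasi-likelihood test, beside 10.5% of all genes. Unadjusted p was under 0.05 for 3 of the 10, beside 25.9% of all genes, PSAT1 (-0.52 ± 0.16, adjusted p = 0.0591), MTHFD2 (-0.25 ± 0.10, adjusted p = 0.133) and CTH (-0.66 ± 0.26, adjusted p = 0.139), all lower with DAC+OSI than with DAC and without overlap. Of all genes, 34.6% did not overlap there in either direction. DESeq2 called 2 (17.3% of all genes) and limma-voom 0 (10.7%), and with the replicate block PSAT1 was called (-0.54, adjusted p = 0.0434). The 10-library fit called 4, beside 23.9% of all genes, and all were lower: the same 3 and PYCR1 (-0.41, adjusted p = 0.000135). In the fit of 12 libraries PYCR1 was 0.06 ± 0.27, so its direction here rests on DAC+OSI 2.

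The interaction, the effect of DAC with OSI present minus its effect without OSI, was called for none of the 10 members by edgeR's quasi-likelihood test, beside 2.82% of all genes. It was above 0 in 9 of 10, beside 51.7% of all genes, and unadjusted p was under 0.05 in 6, beside 15.3%. The largest among those was ALDH1L2 (1.74 ± 0.68, adjusted p = 0.232), then ASNS (1.61 ± 0.63, adjusted p = 0.235), PYCR1 (1.43 ± 0.38, adjusted p = 0.0684), CTH (1.21 ± 0.37, adjusted p = 0.122), SHMT2 (0.77 ± 0.26, adjusted p = 0.159) and PSAT1 (0.53 ± 0.23, adjusted p = 0.294). A value above 0 means that the change with both compounds was less negative than the sum of the 2 single changes. With the replicate block PYCR1 (1.31, adjusted p = 0.0335) and SHMT2 (0.73, adjusted p = 0.0494) were called, beside 3.75% of all genes. DESeq2 called PYCR1 and CTH, beside 6.96%. The 10-library fit called 6, all above 0, beside 20.6% of all genes, and 4 were called without DAC+OSI 2, beside 6.79%. The sizes moved both ways from 10 libraries. ASNS fell to 0.34 (adjusted p = 0.597), PYCR1 to 0.71 (adjusted p = 1.51e-05) and SHMT2 to 0.36 (adjusted p = 0.0217). CTH rose to 1.56 (adjusted p = 6.7e-07), PSAT1 to 0.78 (adjusted p = 8.18e-05) and ALDH1L2 to 2.07 (adjusted p = 0.0485).

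The members did not shift alike in the 2 libraries that stood apart. In Control 2, ASNS was 2.07 times the mean of Control 1 and 3, PYCR1 1.56 times, SHMT2 1.34 times and PHGDH 1.20 times, while PSAT1 was 0.768 times and CTH 0.876 times. In DAC+OSI 2 the same ratios were 3.37, 2.16, 1.55, 1.28, 0.725 and 0.405. GC content only partly ordered these ratios. PYCR1 has the highest of the members (61.8%), then SHMT2 (57.0%) and PHGDH (52.3%), and PSAT1 (42.3%) and CTH (43.3%) are near the low end. MTHFD2, the lowest at 41.4%, had ratios of 1.04 and 0.935 in Control and DAC+OSI. PSPH (49.8%) had 0.852 and 0.664, whereas ALDH18A1, at a similar 49.3%, had 1.11 and 1.18. ASNS, at 47.0%, had the largest ratios of the 10. In the OSI and DAC groups the ratios of library 2 ran from 0.835 to 1.32. The part of GC content in the members' changes was tested only through the GC-corrected fit and the 10-library fit.

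**Figure D3:**
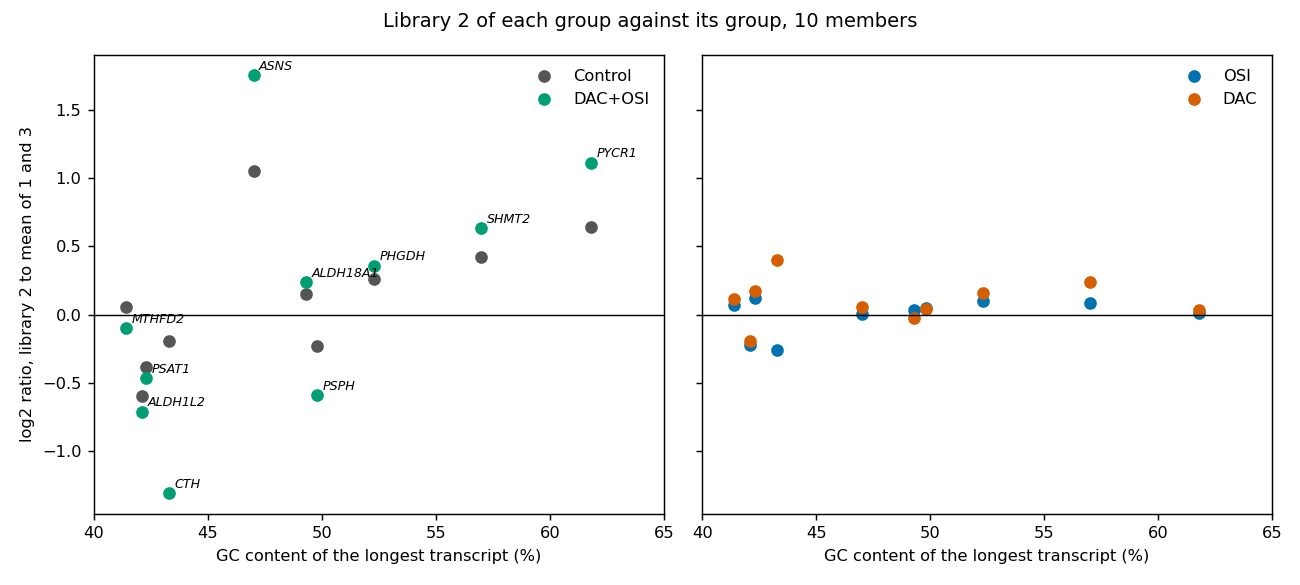
log2 ratio of library 2 to the mean of libraries 1 and 3 of its group (vertical axis) against the GC content of each member's longest transcript in % (horizontal axis), for Control and DAC+OSI on the left and for OSI and DAC on the right. On the left, PYCR1 and SHMT2 lie above 0 and CTH and PSAT1 below it, with ASNS above them all (ratio 3.37 in DAC+OSI), and on the right the points lie between -0.26 and 0.40.

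Among other enzymes of the same pathways, genes moved in both directions. The counts of each list below stand beside those of all 20820 genes tested. Of these, 2192 rose and 1692 fell with OSI, 1094 rose and 826 fell with DAC, and 3178 rose and 2640 fell with DAC+OSI. Whether any list differs from all genes was not tested. Of 14 further serine and glycine genes, 4 rose and 1 fell with OSI, 2 rose and 0 fell with DAC, and 4 rose and 1 fell with DAC+OSI. SHMT1, the cytosolic counterpart of SHMT2, moved the other way. It measured 44.77, 44.44 and 43.32 CPM in Control, 93.93, 83.84 and 82.32 CPM with OSI, 67.93, 75.44 and 80.07 CPM with DAC, and 111.7, 108.1 and 107.5 CPM with DAC+OSI. All treated libraries were above all Control libraries, and the DAC+OSI libraries were the highest. SHMT1 rose 1.96-fold with OSI (0.97 ± 0.11, adjusted p = 5.57e-05), 1.69-fold with DAC (0.75 ± 0.11, adjusted p = 0.00103) and 2.47-fold with DAC+OSI (1.30 ± 0.11, adjusted p = 2.87e-06). SFXN3, a sideroflexin of the inner mitochondrial membrane, rose 1.32-fold with OSI (adjusted p = 0.0396), 1.57-fold with DAC (adjusted p = 0.0063) and 2.36-fold with DAC+OSI (adjusted p = 1.46e-05). The OSI call was lost without any 1 library but Control 2 and the DAC call without DAC 1 or DAC 3.

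Of 20 further folate genes tested, 5 rose and 3 fell with OSI, 2 rose and 1 fell with DAC, and 4 rose and 4 fell with DAC+OSI. MTHFD1L, the mitochondrial synthetase that releases formate downstream of MTHFD2, fell 1.86-fold with OSI (-0.89 ± 0.16, adjusted p = 0.00189), 1.49-fold with DAC (-0.57 ± 0.16, adjusted p = 0.0424) and 2.26-fold with DAC+OSI (-1.18 ± 0.16, adjusted p = 0.000163). The DAC call was lost without any 1 library. MTHFD2L, the paralog of MTHFD2, fell with OSI (-0.96 ± 0.27, adjusted p = 0.0266, lost without Control 1, Control 3 or any 1 OSI library) and was 2.09-fold higher with DAC than with OSI (adjusted p = 0.0156, lost without OSI 2, OSI 3 or DAC 3).

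TYMS, thymidylate synthase, was high with OSI alone. It was at 3.759, 3.22 and 3.639 CPM in Control, 12.24, 10.9 and 9.98 CPM with OSI, 3.239, 3.951 and 3.872 CPM with DAC, and 2.574, 3.065 and 1.732 CPM with DAC+OSI. The OSI libraries stood above all others. TYMS rose 3.11-fold with OSI (1.64 ± 0.20, adjusted p = 0.0001) and was 4.58-fold lower with DAC+OSI than with OSI alone (-2.20 ± 0.20, adjusted p = 1.02e-05). FOLR1, a folate receptor, rose 4.80-fold with OSI (adjusted p = 2.24e-06) and 4.31-fold with DAC+OSI (adjusted p = 1.86e-06). GART, a purine synthesis enzyme that uses formyl-folate, fell 1.54-fold with OSI (-0.62 ± 0.17, adjusted p = 0.0251, lost without Control 1, Control 3, OSI 2 or OSI 3) and 1.94-fold with DAC+OSI (-0.96 ± 0.18, adjusted p = 0.00135).

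**Figure D4:**
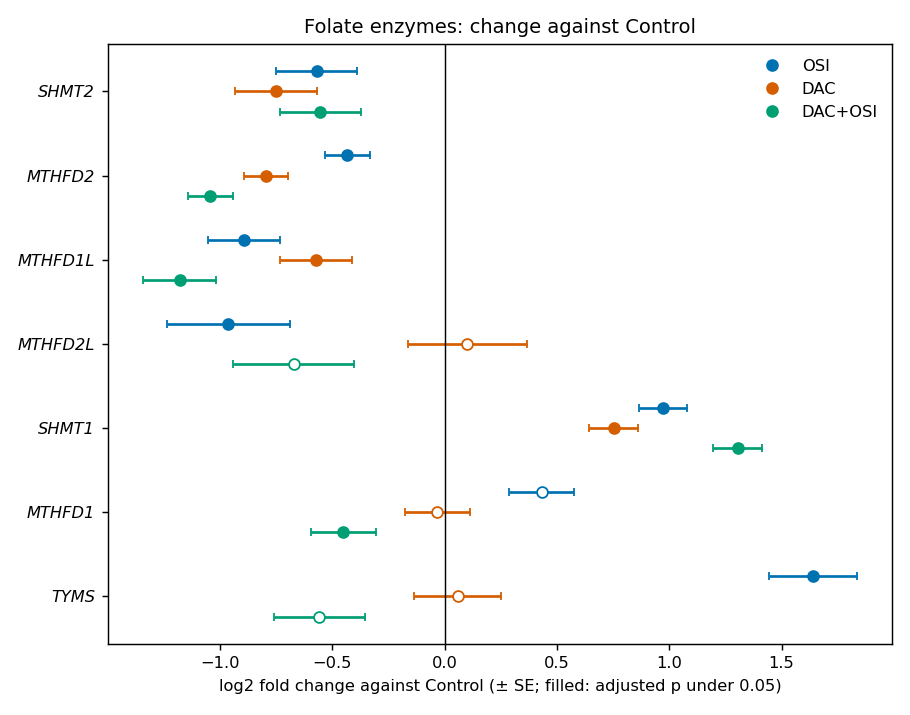
log2 fold change against Control (horizontal axis) of folate enzymes with OSI, DAC and DAC+OSI, ± SE; filled points have an adjusted p under 0.05. The mitochondrial enzymes SHMT2, MTHFD2 and MTHFD1L lie left of 0, and the cytosolic SHMT1 right of it, up to 1.30 with DAC+OSI. The cytosolic MTHFD1 and the MTHFD2 paralog MTHFD2L do not keep to these sides. Mean MTHFD1 was 64.44 CPM in Control, 87.03 with OSI, 62.99 with DAC and 47.06 with DAC+OSI. Mean MTHFD2L was 5.025 CPM in Control, 2.587 with OSI, 5.409 with DAC and 3.1 with DAC+OSI.

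Among 13 genes of the methionine cycle and transsulfuration, 0 rose and 1 fell with OSI, none was called with DAC, and 2 rose and 2 fell with DAC+OSI. MAT2A, which makes S-adenosylmethionine, fell 1.34-fold with OSI (adjusted p = 0.0481, lost without any 1 library of the 6) and 1.52-fold with DAC+OSI (adjusted p = 0.00556). Of 10 further proline, glutamate and ornithine genes tested, 1 rose in each comparison with Control, and it was GLUL, glutamine synthetase. GLUL stood at 128.6, 126.6 and 138.6 CPM in Control, 237.8, 224.5 and 248.7 CPM with OSI, 228.2, 210.1 and 247.1 CPM with DAC, and 316.6, 339.8 and 348.2 CPM with DAC+OSI. All treated libraries were above Control and DAC+OSI was above both single compounds. The rise was 1.81-fold, 1.74-fold and 2.55-fold (adjusted p = 0.000149, 0.000653 and 2.07e-06).

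Of 8 asparagine and aspartate genes, 3 fell and 1 rose with OSI, 2 fell and 0 rose with DAC, and 2 fell and 1 rose with DAC+OSI. GOT1, the cytosolic aspartate aminotransferase, fell 1.47-fold with OSI (-0.55 ± 0.11, adjusted p = 0.00435), 1.59-fold with DAC (-0.67 ± 0.11, adjusted p = 0.00289) and 1.46-fold with DAC+OSI (-0.55 ± 0.11, adjusted p = 0.00305). GPT2, the mitochondrial alanine aminotransferase, fell 1.72-fold with OSI (-0.78 ± 0.20, adjusted p = 0.0168), a call lost without Control 2, OSI 1 or OSI 3.

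Among the regulators of the amino acid response, ATF4 was lowest with OSI. ATF4 mRNA was at 1364, 1711 and 1351 CPM in Control, 1017, 980.4 and 810.4 CPM with OSI, 1206, 1127 and 1021 CPM with DAC, and 1073, 1526 and 893.9 CPM with DAC+OSI. OSI and DAC lay below Control, and DAC+OSI 2 lay within it. ATF4 fell 1.58-fold with OSI (-0.66 ± 0.19, adjusted p = 0.0263), a call lost without Control 1, Control 2 or any 1 OSI library (adjusted p up to 0.122). It was not called with DAC (-0.40 ± 0.19, adjusted p = 0.218) or with DAC+OSI (-0.34 ± 0.19, adjusted p = 0.196), but it was from 10 libraries (-0.29, adjusted p = 0.0293, and -0.47, adjusted p = 0.000989). ATF4 protein, whose level depends largely on translation, was not measured.

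Of the 16 regulators, 6 fell and 1 rose with OSI, 2 fell and 1 rose with DAC, and 3 fell and 3 rose with DAC+OSI. TRIB3, a pseudokinase gene induced by ATF4, had 329.7, 436.9 and 313.4 CPM in Control, 158.4, 157.8 and 144.8 CPM with OSI, 343.8, 361.2 and 370.4 CPM with DAC, and 374.9, 521.4 and 384.6 CPM with DAC+OSI. The OSI libraries stood alone, at less than the level of any other library. TRIB3 fell 2.34-fold with OSI (-1.23 ± 0.16, adjusted p = 0.000169) and was 2.78-fold higher with DAC+OSI than with OSI (1.47 ± 0.16, adjusted p = 3.49e-05). In the latter comparison 3 of the 10 members had values below 0: MTHFD2, which was called, PHGDH and ASNS (-0.62 ± 0.44, adjusted p = 0.392). The other members were above 0 and not called, among them PYCR1 (0.58, adjusted p = 0.171), PSAT1 (0.25, adjusted p = 0.332) and CTH (0.15, adjusted p = 0.767). Whether members follow TRIB3 was not tested. CEBPB, a C/EBP partner of ATF4, rose 1.80-fold with DAC (0.85 ± 0.18, adjusted p = 0.00996) and 1.79-fold with DAC+OSI (0.84 ± 0.18, adjusted p = 0.00338). The DAC call of CEBPB was lost without Control 1, Control 3, DAC 1 or DAC 3 (adjusted p up to 0.0704). MYC fell 1.95-fold with OSI (-0.96 ± 0.14, adjusted p = 0.000539) and 2.03-fold with DAC+OSI (-1.02 ± 0.14, adjusted p = 0.000206). EIF2AK3, an eIF2 alpha kinase of the endoplasmic reticulum, rose 2.10-fold with DAC+OSI (1.07 ± 0.17, adjusted p = 0.000498).

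**Figure D5:**
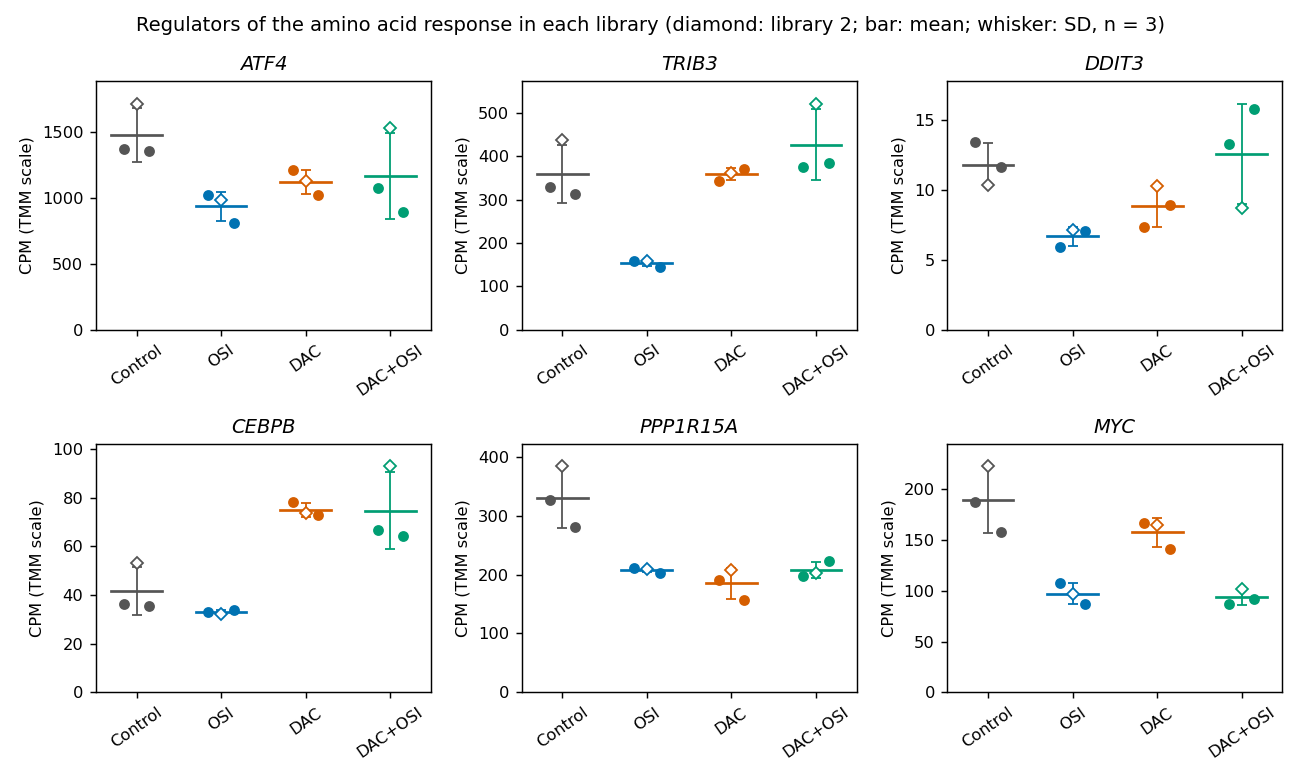
Levels of 6 regulators of the amino acid response in CPM on the TMM scale (vertical axis, from 0) in each library, with group means as bars and SDs as whiskers; the open diamond is library 2. TRIB3 drops to 144.8 to 158.4 CPM in the OSI libraries alone, CEBPB is high in DAC and DAC+OSI, and ATF4 is lower in OSI and DAC than in Control.

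Finally, the genes whose pattern over the 4 group means was most like the mean pattern of the 10 members were listed by the root mean square difference of centred log2 CPM, among 11139 genes with a mean of at least 5 CPM. The 8 nearest were SPOCD1 and SEMA6C (0.035 each), NBR2 and SLC7A1 (0.036 each), TOX2 (0.041), KLF4 (0.042), PLEC (0.047) and ALAS1 (0.049). The members themselves lay between 0.125 (PSPH) and 0.609 (ASNS) from their own mean. SLC7A1, a carrier of cationic amino acids, measured 454.9, 568.9 and 420.7 CPM in Control, 231.5, 266.1 and 264.2 CPM with OSI, 298.2, 314.3 and 257.7 CPM with DAC, and 234.4, 298.5 and 262.2 CPM with DAC+OSI. ALAS1, the first enzyme of haem synthesis, went from 202.4 ± 30.7 CPM (SD, n = 3) in Control to 113.8 ± 10.7 CPM with DAC+OSI. These likenesses describe 4 group means and were not tested.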

How the data were processed

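Polyadenylated RNA of PC9-OR cells was sequenced, 3 libraries in each of 4 groups. The authors deposited 1 table of read counts by Ensembl identifier, made with CASAVA, HISAT2 and featureCounts per the submitters' processing notes. Versions, genome build, annotation and strand setting were not stated. Gene symbols, GC content and lengths came from tables of gene names and GENCODE 29, which matched 39178 and 37919 of 39266 identifiers. Totals were 24.9 to 66.9 M counts (mega-counts). A count of 0 allows up to 3 counts, 0.0449 to 0.12 CPM. This covers counting error only, since PCR copies are not independent molecules.

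In R 4.3.3, counts were filtered with filterByExpr of edgeR 4.0.16, scaled by TMM and fitted to all 12 libraries with edgeR's robust quasi-likelihood model, 1 mean per group (biological coefficient of variation 20.9%). Each of 7 comparisons was tested two-sided, adjusted by Benjamini-Hochberg over 20820 genes and called under 0.05. The SE is the log2 change divided by the square root of F. The fit was tested on simulated data. The labels name no separate cultures, so p-values reflect only how these libraries vary, perhaps technically. Alternatives were size factors (RLE), no filter, DESeq2 1.42.0, limma-voom (limma 3.58.1), a replicate block, 10 libraries, a GC correction, only the groups compared, and each library left out.

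Same-numbered libraries of Control and DAC+OSI deviated together over genes (correlations 0.29, 0.43 and 0.20), although Control 1 also correlated with DAC+OSI 3 (0.28). All other same-numbered pairs lay between -0.06 and 0.08. By the rule used, the numbers pair Control with DAC+OSI only. The pairing comes from the data, not from the labels, and it rests on Control 2 and DAC+OSI 2, the libraries whose deviations rose with GC content. Deviations in a group sum to 0, so library 2 enters all 3 correlations, and library 1 minus library 3 correlated between these groups by only 0.03.

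All 10 members are named. Of the 6 lists of related genes, the text names up to 2 genes called each way per comparison and list, those of largest change among genes reaching 5 CPM, and ATF4 always. The members and lists were chosen with earlier results of these data known. The genes named in addition for a called interaction were chosen after their values were seen. Some genes that the rule names are not reported here.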

Additional observations from a re-analysis of the deposited data

Results flagged for a closer look

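For 7 related genes the effect of DAC differed between cells with and without OSI, by the interaction in edgeR's quasi-likelihood test at an adjusted p under 0.05. None of the 10 members was among them. Of all genes tested, 2.82% were called. TRIB3 had an interaction of 1.48 ± 0.22 (SE, log2 scale, adjusted p = 0.00354), from a DAC effect of -0.01 ± 0.16 without OSI and 1.47 ± 0.16 with it. TYMS had -2.25 ± 0.28 (adjusted p = 0.00108), from a DAC effect of 0.06 ± 0.20 without OSI and -2.20 ± 0.20 with it. Both calls held under all 19 alternatives. MTHFD1, the cytosolic partner of the mitochondrial folate enzymes, had -0.85 ± 0.20 (adjusted p = 0.0445). DDIT3, the stress factor CHOP, had 1.34 ± 0.30 (adjusted p = 0.0296), PPP1R15A 0.83 ± 0.20 (adjusted p = 0.0411), GOT1 0.68 ± 0.16 (adjusted p = 0.0414) and ARG2 1.78 ± 0.42 (adjusted p = 0.043). These 5 calls were lost under 8 to 12 of the 19 alternatives. The ARG2 value moved most, to 1.24 at the lowest, and ARG2 measured 8.707 CPM in DAC+OSI 2 against 3.23 and 3.805 CPM in the other DAC+OSI libraries.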

How the results depend on the processing

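The count of members called kept within 1.5 times its value under every alternative only for OSI against Control, where it was 7 and ran from 5 to 6 with 1 library left out. With DAC against Control it was 5, ran from 1 to 4 with 1 library left out and was 9 from 10 libraries. For DAC+OSI against Control it was 8, ran from 5 to 8, and was 4 with only the groups compared. For DAC+OSI against OSI it was 1, ran from 1 to 5, and was 3 with no filter, 3 with the GC correction and 7 from 10 libraries. DAC+OSI against DAC gave 0, a range of 0 to 1, 1 with RLE scaling, with the replicate block and with the GC correction, 2 with no filter and with DESeq2, and 4 from 10 libraries. DAC against OSI gave 3, a range of 1 to 2, 7 with only the groups compared and 8 from 10 libraries. The interaction gave 0, a range of 0 to 4, 2 with DESeq2 and with the replicate block, 4 with no filter and with the GC correction, and 6 from 10 libraries. The count of all genes called moved widely too. Over the same alternatives it ran from 2583 to 9098 around 3884 for OSI against Control, and from 752 to 5598 around 1920 for DAC. It ran from 2819 to 8793 around 5818 for DAC+OSI against Control, 1697 to 8731 around 3480 against OSI and 742 to 5130 around 2182 against DAC. For DAC against OSI it ran from 2571 to 10348 around 4270, and for the interaction from 313 to 4422 around 587. The cause of these differences was not tested.

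With 1 library left out, the calls of related genes were kept 381 times and lost 165 times. Of the member calls, 5 of 7 (OSI), 1 of 5 (DAC) and 5 of 8 (DAC+OSI) held without any 1 library. The replicate block lost no member call and added 4, PYCR1 with DAC, PSAT1 for DAC+OSI against DAC, and PYCR1 and SHMT2 for the interaction. With the block, DAC+OSI against Control kept 8 calls, and all 10 members kept their side of the threshold when only those 2 groups were fitted with the block.

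Directions turned only in values that were not called in the fit of 12 libraries. For DAC+OSI against OSI, SHMT2 turned to -0.015 with no filter, -0.023 with limma-voom, -0.013 with the replicate block, -0.053 with the GC correction, -0.24 from 10 libraries (adjusted p = 0.0193), and ran from -0.25 to 0.14 with 1 library left out. PSPH ran from -0.091 to 0.18 and CTH from -0.085 to 0.42 there. For DAC+OSI against DAC, 10 libraries turned PHGDH to -0.11, SHMT2 to -0.042, ASNS to -0.74, PYCR1 to -0.41 and ATF4 to -0.18. The GC correction turned PHGDH to -0.057, SHMT2 to -0.031, PYCR1 to -0.33, ATF4 to -0.16 and MTHFD2 to 0.0067. limma-voom gave ASNS -0.20 and PYCR1 -0.080, the replicate block -0.10 and -0.025. ALDH18A1 turned to 0.0044 with RLE scaling and 0.0026 with DESeq2. With 1 library left out the values ran from -0.11 to 0.095 (PHGDH), -0.049 to 0.34 (SHMT2), -0.75 to 0.42 (ASNS), -0.10 to 0.067 (ALDH18A1), -0.42 to 0.26 (PYCR1) and -0.19 to 0.23 (ATF4). ALDH1L2 ran from -0.72 to 0.15 for DAC+OSI against Control, the latter without Control 1, and from -0.27 to 0.23 for DAC against OSI.

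Depth limits ALDH1L2, with 5 to 49 counts a library.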
